A study of Mus musculus with 2 samples.

Results

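The 6 genes Ccr4, Ccr7, Ccr9, Cxcr4, S1pr1 and Klf2 guide thymocytes through the thymus and out of it. They were taken by name from the 21938 protein-coding genes of the GENCODE M21 annotation of the GRCm38 (mm10) mouse genome. Open chromatin was measured around them by DNase-seq, in which cuts of the enzyme DNase I in nuclei mark accessible DNA, in thymus tissue of adult female B6CASTF1/J mice, hybrids of the B6 and CAST strains, that were 18 to 20 months old. There was 1 group of 2 libraries, labelled as biological replicates 1 and 2. Both libraries refer to 1 donor record, through separate biosample records. Whether they came from different animals is not said, and their spread may be only technical. With no other age, tissue or genotype, the 6 genes were set against all genes of the same libraries, and no test of a difference was possible. Peaks were placed on the B6 reference genome, and the effect of CAST alleles on these values was not tested.

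Developing T cells move by chemokine gradients. CXCR4, the receptor of CXCL12, holds early thymocytes in the cortex, CCR9 answers CCL25 made by thymic epithelium, and CCR4 and CCR7 draw positively selected cells into the medulla towards CCL17, CCL22, CCL19 and CCL21. Mature cells then switch on the transcription factor KLF2, which drives S1pr1, and the S1P1 receptor lets them follow sphingosine-1-phosphate into the blood.

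All 6 genes had an open promoter in both libraries, but the strength ranged widely, and the receptors differed in where their strongest open site lay. Ccr4, Ccr7 and Ccr9 each had a site away from any promoter that was stronger than their own promoter in both libraries. Cxcr4 and Klf2 had strong, CpG-rich promoters that exceeded all sites away from promoters, and S1pr1 had a weak promoter and few sites. A promoter peak here is a peak that overlaps the 1 kb on either side of an annotated start site, and a gene's span is its body with 20 kb on each side.

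The sequences of 3 sites away from promoters come first, because these were the strongest open sites of Ccr4, Ccr7 and Ccr9. They are GRCm38 reference sequence on the gene's own strand, 5′ to 3′, and capitals mark bases inside a footprint, a short stretch protected from cutting, in both libraries. The Ccr4 site is chr9:114498321-114498500 on the minus strand, with its centre at -1.85 kb. Distances are counted from the gene's start site and are negative upstream. The annotated Ccr4 gene runs upstream past this start, and the centre of the site lies in that part, outside annotated exons. The Ccr7 site is chr11:99136501-99136740 on the minus strand, between genes, at +18.46 kb. The Ccr9 site is chr9:123754441-123754680 on the plus strand, at -12.67 kb from the main start, in an intron of a longer Ccr9 transcript.
Ccr4 upstream site: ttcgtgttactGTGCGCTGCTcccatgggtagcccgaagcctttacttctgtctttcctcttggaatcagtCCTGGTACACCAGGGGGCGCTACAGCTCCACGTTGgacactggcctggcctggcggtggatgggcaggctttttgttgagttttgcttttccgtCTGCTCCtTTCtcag
Ccr7 downstream site: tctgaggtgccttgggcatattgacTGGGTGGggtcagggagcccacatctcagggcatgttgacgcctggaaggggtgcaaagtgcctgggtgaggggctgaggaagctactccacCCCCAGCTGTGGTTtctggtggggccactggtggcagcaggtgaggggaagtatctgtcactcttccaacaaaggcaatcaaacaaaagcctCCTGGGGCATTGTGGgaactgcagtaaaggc
Ccr9 upstream site: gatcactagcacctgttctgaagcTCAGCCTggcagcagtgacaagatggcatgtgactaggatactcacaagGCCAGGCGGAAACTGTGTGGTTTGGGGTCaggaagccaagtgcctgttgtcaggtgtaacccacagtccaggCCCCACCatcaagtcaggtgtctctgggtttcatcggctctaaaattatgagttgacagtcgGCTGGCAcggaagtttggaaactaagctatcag

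The promoters are shown to set the CpG-rich pair, Cxcr4 and Klf2, beside the CpG-poor promoters of Ccr7 and Ccr9. Each runs from the upstream end of its peak to at most 30 bases past the start of transcription. They are chr1:128592261-128592480 on the minus strand for Cxcr4, chr8:72318801-72319062 on the plus strand for Klf2, chr11:99155048-99155240 on the minus strand for Ccr7, and chr9:123767061-123767240 on the plus strand for Ccr9.
Cxcr4 promoter: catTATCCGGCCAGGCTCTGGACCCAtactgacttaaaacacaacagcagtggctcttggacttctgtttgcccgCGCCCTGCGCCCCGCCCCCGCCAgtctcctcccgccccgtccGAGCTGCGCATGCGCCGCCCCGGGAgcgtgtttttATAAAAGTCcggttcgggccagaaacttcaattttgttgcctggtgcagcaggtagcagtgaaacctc
Klf2 promoter: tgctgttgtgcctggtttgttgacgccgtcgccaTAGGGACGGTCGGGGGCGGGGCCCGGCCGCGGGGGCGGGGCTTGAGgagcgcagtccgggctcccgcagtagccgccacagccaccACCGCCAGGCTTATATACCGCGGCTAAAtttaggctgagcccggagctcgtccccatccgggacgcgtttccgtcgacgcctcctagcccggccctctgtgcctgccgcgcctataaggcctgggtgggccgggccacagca
Ccr7 promoter: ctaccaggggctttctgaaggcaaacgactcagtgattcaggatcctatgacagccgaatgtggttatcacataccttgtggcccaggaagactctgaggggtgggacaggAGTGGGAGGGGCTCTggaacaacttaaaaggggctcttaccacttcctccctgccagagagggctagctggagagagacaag
Ccr9 promoter: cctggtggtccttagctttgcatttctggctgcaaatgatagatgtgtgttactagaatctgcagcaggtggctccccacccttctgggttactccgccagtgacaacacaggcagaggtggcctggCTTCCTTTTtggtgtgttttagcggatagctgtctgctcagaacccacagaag

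The Cxcr4 stretch held 16 CpG in 220 bases and the Klf2 stretch 29 in 262 bases, while the Ccr7 stretch held 2 in 193 bases and the Ccr9 stretch 2 in 180 bases. Over the whole promoter peaks the ratio of observed to expected CpG was 0.841 for Cxcr4 and 0.869 for Klf2. It was 0.489 for S1pr1, 0.339 for Ccr4, 0.116 for Ccr7 and 0.115 for Ccr9. The pair with the highest ratio also had the highest promoter signals, and no relation was tested over 6 genes.

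Promoter peaks of the main peak list of each library were present in both libraries at 6 of the 6 genes, against 53.6% of all protein-coding genes. In the longer list of each library the count was again 6 of 6, against 58.1% of all genes. The peak signal is the value the authors deposited per peak, whatever its width, and its scale is not stated. Signals came in whole steps within a tolerance of 0.1 steps, of 0.00895 in replicate 1 and 0.00652 in replicate 2, so that the median peak of the main list was 186 steps in replicate 1 and 219 steps in replicate 2. Over 37494 peaks paired between the libraries the median log2 ratio of replicate 2 to replicate 1 was -0.17, and ratios for single sites are given after that median was subtracted. In bulk tissue, a lower signal from fewer cells of a type and one from less open chromatin per cell cannot be told apart.

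The Cxcr4 promoter gave the highest signal of the 6, with 9.90 in replicate 1 and 7.58 in replicate 2 (mean 8.74 ± 1.64, SD, n = 2). Each value is the library's strongest promoter peak, at -0.05 kb in replicate 1 and at +1.05 kb in replicate 2. The site at -0.05 kb alone had 9.90 and 7.39 in the same order (8.64 ± 1.77). Klf2 gave 7.75 in replicate 1 and 7.75 in replicate 2. These top 2 could not be ordered, since the Klf2 values lay inside the Cxcr4 range. The Ccr7 promoter followed with 5.19 in replicate 1 and 5.98 in replicate 2 (5.59 ± 0.56). Ccr9 had 2.63 in replicate 1 and 2.85 in replicate 2 (2.74 ± 0.155), and Ccr4 had 2.00 in replicate 1 and 2.22 in replicate 2 (2.11 ± 0.157). S1pr1 was lowest with 1.45 in replicate 1 and 1.51 in replicate 2 (1.48 ± 0.0405). From Klf2 down, the libraries of neighbouring genes did not overlap. The median over the 6 genes was 4.16, against 5.59 over all genes with a promoter peak in both libraries, so their promoters as a list were not stronger than others. Among those genes the Cxcr4 promoter stood above 76.5% in replicate 1 and 66.9% in replicate 2, and the S1pr1 promoter above 9.27% in replicate 1 and 12.9% in replicate 2.

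**Figure D1:**
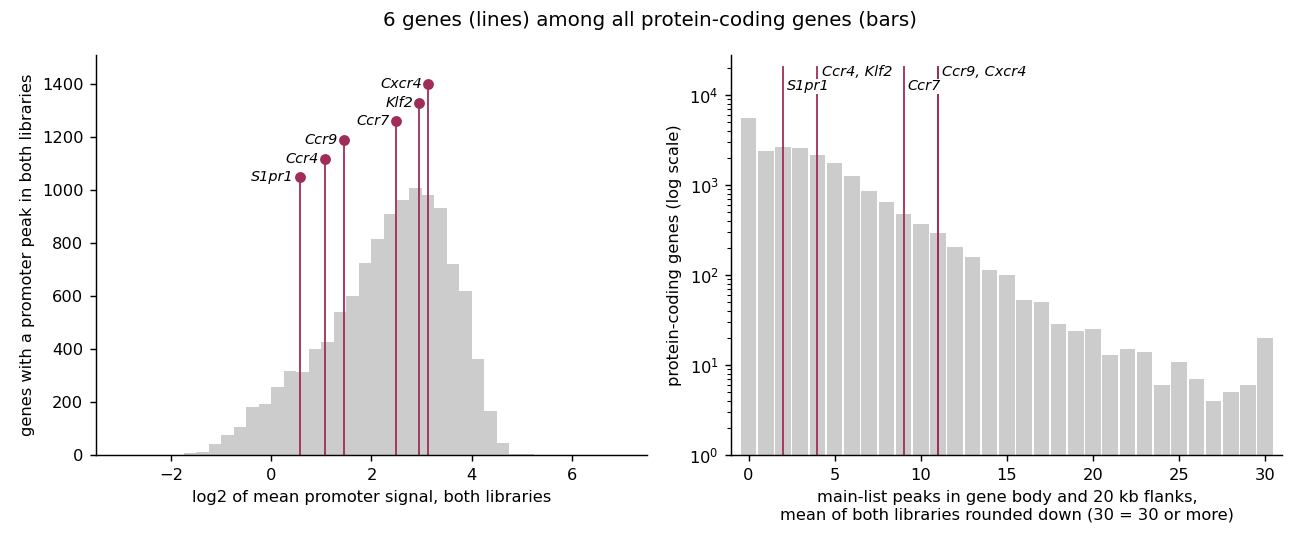
Left, histogram of the log2 mean promoter signal of both libraries over all genes with a promoter peak in both, with lines for the 6 genes. S1pr1, Ccr4 and Ccr9 lie in the lower tail (means 1.48, 2.11 and 2.74), and Ccr7, Klf2 and Cxcr4 lie in the bulk of genes. Right, number of main-list peaks in the gene body and 20 kb on each side, mean of both libraries rounded down, with genes counted on a log axis; Ccr7, Ccr9 and Cxcr4 lie to the right of most genes, at 9.5, 11 and 11.5 peaks before rounding.

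The strongest peak away from all protein-coding promoters exceeded the promoter peak in both libraries at 3 of the 6 genes, Ccr4, Ccr7 and Ccr9, against 12.8% of all genes with an open promoter. At Ccr9 it was 2.80 times the promoter signal in replicate 1 and 3.48 times in replicate 2. At Ccr4 it was 3.13 times the promoter in replicate 1 and 1.56 times in replicate 2, and at Ccr7 it was 1.38 times in replicate 1 and 1.44 times in replicate 2. The other 3 genes went the opposite way. The ratio was 0.335 in replicate 1 and 0.446 in replicate 2 at Cxcr4, 0.221 and 0.297 in the same order at Klf2, and 0.975 and 0.758 at S1pr1. With promoters widened to 2.5 kb on either side, the Ccr4 site counted as part of the promoter and only Ccr7 and Ccr9 were left. This comparison was not planned before the data were seen. The share of 12.8% is over spans of all lengths, while the Ccr9 span of 145.9 kb held 7 peaks away from promoters in replicate 1 and 9 in replicate 2.

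**Figure D2:**
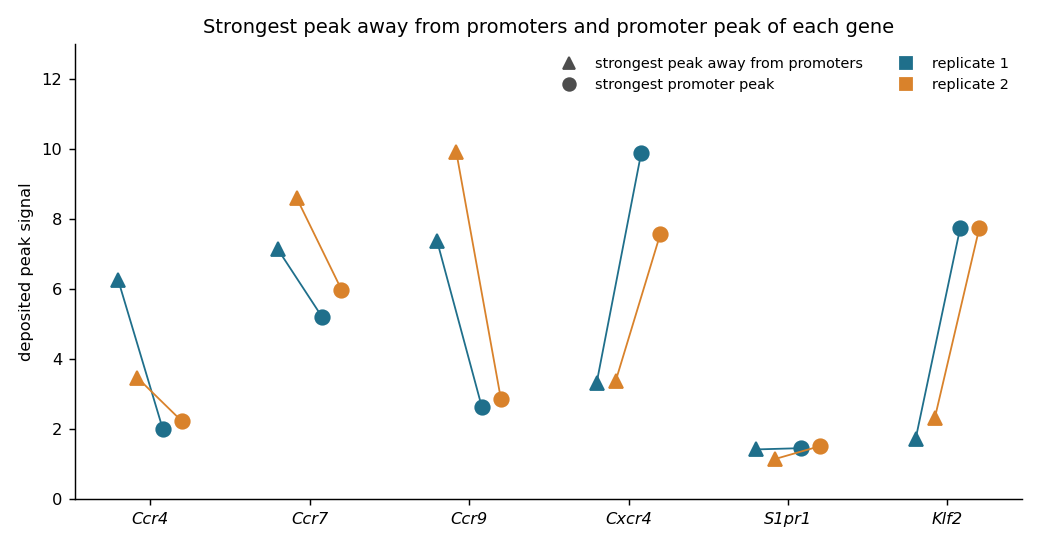
Deposited signal of the strongest peak away from promoters (triangles) and of the strongest promoter peak (circles) of each gene, 1 line per library. Lines slope down for Ccr4, Ccr7 and Ccr9 in both libraries and up for Cxcr4, Klf2 and, by little, S1pr1.

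The spans of the 6 genes held a median of 6.75 main-list peaks, against 3.0 over all protein-coding genes. The number differed between members, from 2 in replicate 1 and 3 in replicate 2 at S1pr1 to 10 in replicate 1 and 13 in replicate 2 at Cxcr4. The place of Cxcr4 rested on how closely spaced peaks were counted. With peaks up to 500 bp apart joined, Cxcr4 had 5.0 on average, below 11 at Ccr9 and 8.5 at Ccr7, and with 10 kb flanks it had 7.0, below 9.0 at Ccr9. Among genes of like length, with peaks not joined, 97% had as many peaks as Cxcr4 or fewer, and the same share was 94.7% for Ccr7, 93.4% for Ccr9 and 78.4% for Klf2. It was 64.3% for Ccr4 and 59% for S1pr1. In all, the spans held 39 main-list peaks in replicate 1, of which 89.7% were overlapped by a peak of replicate 2, against 79.4% of all peaks of replicate 1. They held 46 in replicate 2, of which 76.1% were overlapped by a peak of replicate 1, against 80.7% of all peaks of replicate 2. When overlapping peaks of either list and either library were merged, 60 sites resulted. Of these, 35 were in the main list of both libraries, 22 of them away from promoters. A further 9 were in the main list of 1 library and the longer list of both, 5 were in the longer lists alone of both libraries, 5 were in the main list of 1 library alone and 6 in the longer list of 1 alone.

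**Figure D3:**
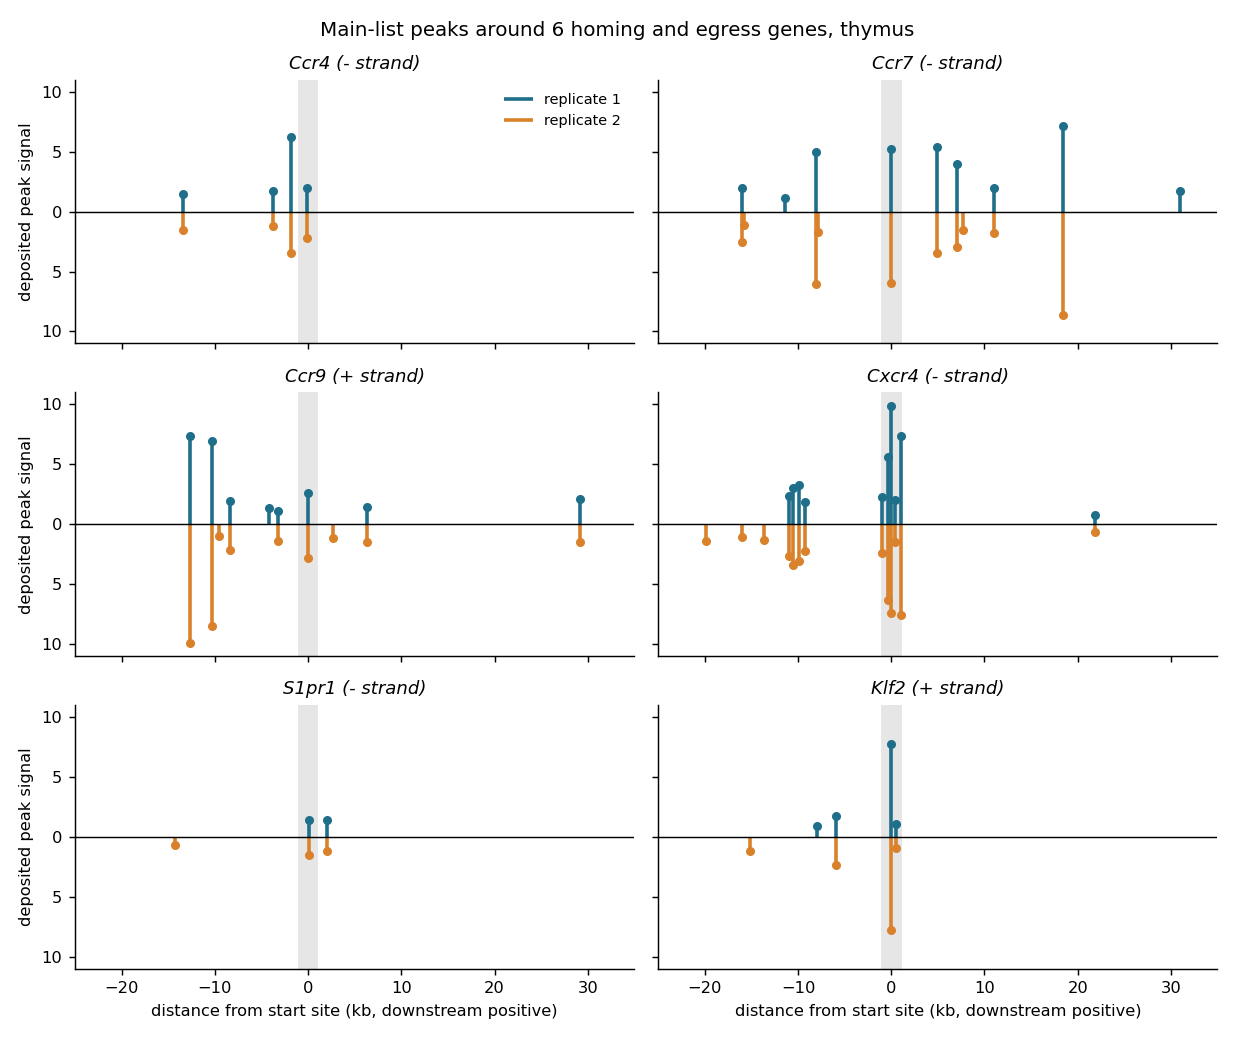
Main-list peaks by distance of their centre from the start site in kb, with the deposited signal of replicate 1 drawn upward and that of replicate 2 downward and grey bands for 1 kb on either side of the start. Cxcr4 and Klf2 are tallest at the start site, Ccr9 near -12.67 and -10.29 kb, Ccr7 at 18.46 kb and Ccr4 at -1.85 kb; peaks merged into 1 site are drawn once, and 2 sites of the Ccr9 span farther upstream, at -101.39 and -49.59 kb, are not drawn.

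Cxcr4 (chr1:128588199-128592293, minus strand) had the densest cluster of open sites at its start. Centres of 5 sites in the main list of both libraries lay between -0.96 and +1.05 kb. The site over the start, at -0.05 kb, had 9.90 in replicate 1 and 7.39 in replicate 2, and the intronic site at +1.05 kb had 7.36 in replicate 1 and 7.58 in replicate 2. The site at -0.34 kb had 5.59 in replicate 1 and 6.33 in replicate 2. The first of these was the highest in replicate 1 and the intronic site in replicate 2, so the libraries did not give the same order. A second cluster of 4 sites lay between -10.93 and -9.21 kb, between genes, with signals from 1.87 to 3.31 in replicate 1 and from 2.27 to 3.38 in replicate 2. Farther upstream the libraries parted. The sites at -13.70 kb (1.34) and -16.02 kb (1.10) were in the lists of replicate 2 alone, and replicate 1 listed no base there with a false discovery rate under 0.05. Another site at -19.84 kb had 1.42 in the main list of replicate 2, and replicate 1 had 1.41 there in its longer list. The site at +21.92 kb was weak in both libraries, with 0.779 in replicate 1 and 0.613 in replicate 2. No other protein-coding gene had its start nearest to any site of the Cxcr4 span.

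Ccr9 (chr9:123678439-123784330, plus strand) is annotated with a long transcript that begins at Slc6a20a, a transporter gene, and runs across Lztfl1, a gene of ciliary traffic. The site at -12.67 kb had 7.36 in replicate 1 and 9.92 in replicate 2, and the site at -10.29 kb had 6.94 in replicate 1 and 8.52 in replicate 2. The stronger one exceeded 90.6% of all main-list peaks in replicate 1 and 95.2% in replicate 2. Between this pair and the promoter lay weaker sites, at -8.38 kb with 1.97 in replicate 1 and 2.13 in replicate 2, and at -3.20 kb with 1.13 in replicate 1 and 1.36 in replicate 2. Downstream, a site at +6.28 kb, near an internal start of the gene, had 1.46 in replicate 1 and 1.47 in replicate 2. Some sites of the annotated span were nearest to the start of another gene. The strong site at -49.59 kb, with 8.15 in replicate 1 and 9.08 in replicate 2, is the Lztfl1 promoter, and the site at +29.15 kb, in an intron of Fyco1, is nearest to the start of the chemokine receptor gene Cxcr6. A weak site at -101.39 kb, in an intron of Slc6a20a but nearest to the upstream start of the long Ccr9 transcript, differed most between libraries, with 2.20 in replicate 1 and 1.03 in replicate 2, a centred log2 ratio of -0.92 that was larger in size than that of 96.1% of all peak pairs. Counted from the main start with its flanks, the Ccr9 span held 9 peaks on average, against 11 with the body as annotated.

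Ccr7 (chr11:99144196-99155077, minus strand) had sites spread along its whole span, with no other gene in it. The site shown at +18.46 kb had 7.14 in replicate 1 and 8.59 in replicate 2. Upstream, the site at -8.11 kb had 4.96 in replicate 1 and 6.0 in replicate 2. The downstream site exceeded the promoter in both libraries, and the upstream site was below it in replicate 1 and above it, by little, in replicate 2. A pair of intronic sites was stronger in replicate 1, with 5.39 in replicate 1 and 3.44 in replicate 2 at +4.96 kb, and 4.00 in replicate 1 and 2.92 in replicate 2 at +7.09 kb. After centring, their log2 ratios of -0.47 and -0.28 were larger in size than those of 71.6% and 47.7% of all peak pairs. The remaining shared sites were weaker, between 1.77 and 2.54 at -16.00 and +11.04 kb. Sites in the main list of 1 library were weak, and at -11.40 kb replicate 1 had 1.16 while replicate 2 had 1.47 in its longer list. One of the sites in the main list of replicate 2 alone, at -7.88 kb (1.69), was not empty in replicate 1, where all of its 64 bases were listed with a false discovery rate under 0.05, the lowest being 1.44e-07.

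Ccr4 (chr9:114490316-114504916, minus strand) had 4 main-list peaks in each library, and all were overlapped by the other library. The site at -1.85 kb had 6.26 in replicate 1 and 3.46 in replicate 2. Its centred log2 ratio of -0.68 was larger in size than that of 87.4% of all pairs. The site was above the promoter in both libraries, so its rank held while its size did not. The site at -3.76 kb had 1.69 in replicate 1 and 1.24 in replicate 2. The site at -13.39 kb lies in the 3′ UTR of the neighbouring gene Trim71 and had 1.5 in replicate 1 and 1.56 in replicate 2; the nearest protein-coding start there is that of C130032M10Rik.

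S1pr1 (chr3:115710433-115715072, minus strand) was the least open of the 6 genes. Beside its promoter, 1 site was in the main list of both libraries, at +2.08 kb over the junction of the 5′ UTR and the coding part of its exon, with 1.41 in replicate 1 and 1.14 in replicate 2. That made it about as strong as the promoter in replicate 1 and weaker in replicate 2. A stretch of 25 bases of this site was inside a footprint in both libraries, at chr3:115712989-115713013 on the minus strand, and it is shown because it was the longest such stretch at S1pr1.
S1pr1 exon footprint: CTCAACCTCGCCCTCTAGCGTTTGC

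A weak site just upstream of the S1pr1 start, at -0.37 kb in an exon of the noncoding gene Gm9889, was in the longer list of both libraries, with 0.564 in replicate 1 and 0.633 in replicate 2. Replicate 2 alone had a site at -14.29 kb, with 0.639. The S1pr1 span held 2.5 peaks on average, below the 3.0 of all genes and above the 2.0 of genes of like length.

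Klf2 (chr8:72319033-72321656, plus strand) is a short gene that encodes the egress factor named above, and its signal was concentrated at the start. The promoter was followed by a site in the coding sequence at +0.50 kb with 1.10 in replicate 1 and 0.952 in replicate 2. The strongest site away from promoters, at -5.90 kb, had 1.71 in replicate 1 and 2.30 in replicate 2. The promoter was thus several times stronger than any other site of the span in both libraries. The lowest false discovery rate listed in the Klf2 promoter was 2.48e-68 in replicate 1 and 1.16e-56 in replicate 2, the lowest of any site of the 6 genes in replicate 1. Weaker sites at -7.99 and -15.10 kb reached the main list in 1 library each and the longer list in both; their nearest protein-coding start is that of Gm10282.

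The 6 spans held 185 footprints in replicate 1, of which 57.3% were overlapped by a footprint of replicate 2, against 57.0% of all footprints of replicate 1. They held 220 in replicate 2, of which 48.6% were overlapped by replicate 1, against 51.4% of all footprints of replicate 2. Agreement between libraries was thus close to that of all footprints. Most lay in main-list peaks, 130 in replicate 1 and 149 in replicate 2, while 26 in replicate 1 and 31 in replicate 2 lay outside both lists. This split was not compared with that of all footprints. Cxcr4 had 50 in replicate 1 and 65 in replicate 2, and Ccr9 had 52 in replicate 1 and 61 in replicate 2. Ccr7 followed with 33 in replicate 1 and 43 in replicate 2. Ccr4 had 21 in replicate 1 and 18 in replicate 2, and Klf2 had 17 in replicate 1 and 20 in replicate 2. S1pr1 had the fewest, with 12 in replicate 1 and 13 in replicate 2, so the order of the genes by footprints was close to their order by peaks.

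At the sites whose sequences are shown, footprints recurred unevenly between libraries. The Cxcr4 site over the start had 5 footprints in replicate 1 and 4 in replicate 2, and 4 of each library were overlapped by the other. The Klf2 promoter had 4 in each library, of which 3 were overlapped, and the Ccr7 promoter had 2 in each, of which 1 was overlapped. Of the sites away from promoters, the Ccr9 site at -12.67 kb had 5 in replicate 1 and 4 in replicate 2, with 4 of each overlapped, and the Ccr7 site at +18.46 kb had 5 in each, with 3 of each overlapped. In the Ccr9 upstream site, 50 of 240 bases were inside footprints of both libraries, against 57 in replicate 1 and 81 in replicate 2 taken singly. The Ccr4 site at -1.85 kb had 4 footprints in replicate 1, of which 3 were overlapped, and 5 in replicate 2, of which 4 were. The Ccr9 promoter had 4 in each library, with 3 overlapped in replicate 1 and 2 in replicate 2. At the S1pr1 exon site there were 4 in each, with 3 of each overlapped. The Klf2 site at -5.90 kb, whose sequence is not shown, had 3 footprints in replicate 1 and 1 in replicate 2, and none overlapped.

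Short motifs of factors known in T cells were searched on both strands in peaks and in footprints widened by 5 bp on each side, where a match is a run of letters and not a bound site. The KLF and SP letters GGGCGG were in 5 of 39 peaks of the 6 spans in replicate 1 (12.8%) and 6 of 46 in replicate 2 (13%). Over all main-list peaks the shares were 31.9% in replicate 1 and 32.2% in replicate 2. Of the 35 sites of the 6 genes in the main list of both libraries, 22 lay away from promoters. The share was not compared within promoter peaks or within peaks away from promoters. Promoter matches to GGGCGG inside footprints that overlapped between libraries were at Cxcr4, Klf2 and S1pr1. The looser KLF and SP letters CCNCNCC did not show this split. Such matches were also at the Ccr4 and Ccr7 promoters, and just past the called end of the Ccr9 promoter peak. The looser letters were in 56.4% of the peaks of the 6 spans in replicate 1 and 58.7% in replicate 2. Over all peaks the shares were 62.3% in replicate 1 and 64.5% in replicate 2. The letters CAGCTG, bound by E proteins, were in 8 of the 185 footprints in replicate 1 (4.32%) and 7 of the 220 in replicate 2 (3.18%), against 1.66% of all footprints in replicate 1 and 1.81% in replicate 2. In both libraries these included footprints of the Ccr7 sites at +18.46 and -16.00 kb, the Ccr9 promoter and the Cxcr4 site at -9.88 kb. In peaks, CAGCTG was in 17.9% in replicate 1 and 26.1% in replicate 2, against 16.8% and 18.6% of all peaks. The other E protein letters searched, CAGGTG, were close to the share of all footprints. They were in 2.16% in replicate 1 and 2.73% in replicate 2, against 2.36% and 2.27%. CAGCTG was not alone above the share of all footprints in both libraries. The NFAT letters TGGAAA were in 2.7% in replicate 1 and 2.27% in replicate 2, against 1.0% of all footprints in each. GATA letters AGATAA were in none and 1.36% in the same order, against 0.258% and 0.261%. ETS letters AGGAAG were in 2.7% and 2.27%, against 2.54% and 2.62%. TCF7 and LEF1 letters CTTTGA were in none and 0.455%, against 0.96% and 1.09%. In the Ccr7 downstream site shown above, the CAGCTG match overlaps one to the RUNX letters TGTGGT, which are also in a shared footprint of the Ccr9 upstream site. Motif matches of this length are frequent, and 15.7% of all peaks in replicate 1 and 16.8% in replicate 2 held the RUNX letters.

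Foxo1 is known to drive Klf2 and Ccr7 in T cells, but its letters GTAAACA were in 1 of 39 peaks of the 6 spans in replicate 1 and 0 of 46 in replicate 2, against 2.09% of all peaks in replicate 1 and 2.21% in replicate 2. No footprint of the 6 spans held them in either library, against 0.0703% of all footprints in replicate 1 and 0.061% in replicate 2. At shares this low, their absence from 185 and 220 footprints says little. The NF-kB motif searched had no match in these peaks either, against 0.314% of all peaks in replicate 1 and 0.353% in replicate 2. A window without these letters says nothing about the factors themselves. After the printed sequences had been read, 3 more motifs were added. The CTCF core CNAGNGGGC was in shared footprints of the Ccr4 site at -1.85 kb, the S1pr1 exon site and the Ccr9-span site at +29.15 kb. It was in 10.3% of the peaks of the 6 spans in replicate 1 and 8.70% in replicate 2, against 12% of all peaks in replicate 1 and 10.5% in replicate 2. The NRF1 core GCATGCG and the TATA box letters TATAAA were both in shared footprints of the Cxcr4 promoter, and in shared footprints of no other site of the 6 genes. Each was in 1 footprint of the 6 spans per library, 0.541% in replicate 1 and 0.455% in replicate 2. Over all footprints the shares were 0.587% and 0.545% for the NRF1 core, and 0.257% and 0.222% for the TATA box letters.

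Beyond the 6 genes, other genes of the same pathways were read from lists. A peak within 1 kb of a listed gene's start was counted for that gene, even where it also lay at another gene's start. Which gene such a peak belongs to was not tested. Of 6 ligand genes of these receptors, Ccl25 had a promoter peak in both libraries, with 9.64 in replicate 1 and 7.35 in replicate 2, and Ccl17 and Ccl19 were among 5 with none in either. Of 10 other lymphocyte chemokine receptors, 2 had one in both, among them the scavenger receptor gene Ackr3 with 0.850 in replicate 1 and 0.568 in replicate 2. Ccr10 and Ackr4 had none. Of 8 genes that sense or handle sphingosine-1-phosphate, 6 were open in both libraries. The kinase gene Sphk2 was highest, with 12 in replicate 1 and 13.6 in replicate 2. The receptor gene S1pr4 had 4.66 in replicate 1 and 5.31 in replicate 2, next by the mean only, since the lyase gene Sgpl1 had 5.86 in replicate 1 and 3.75 in replicate 2. S1pr5 had no promoter peak. All 9 regulators of egress and quiescence were open, with Klf6 at 16.7 in replicate 1 and 19.5 in replicate 2 and Klf13 at 13.2 in replicate 1 and 14.6 in replicate 2, both above Klf2. Of 14 genes of the migration machinery, 13 were open. The arrestin gene Arrb2 was highest, with 17.4 in replicate 1 and 15.4 in replicate 2. The kinase gene Stk4 had 16.8 in replicate 1 and 14.3 in replicate 2, next by the mean only, since Rassf5 had 13.9 in replicate 1 and 15.3 in replicate 2. The integrin gene Itgae had no promoter peak.

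**Figure D4:**
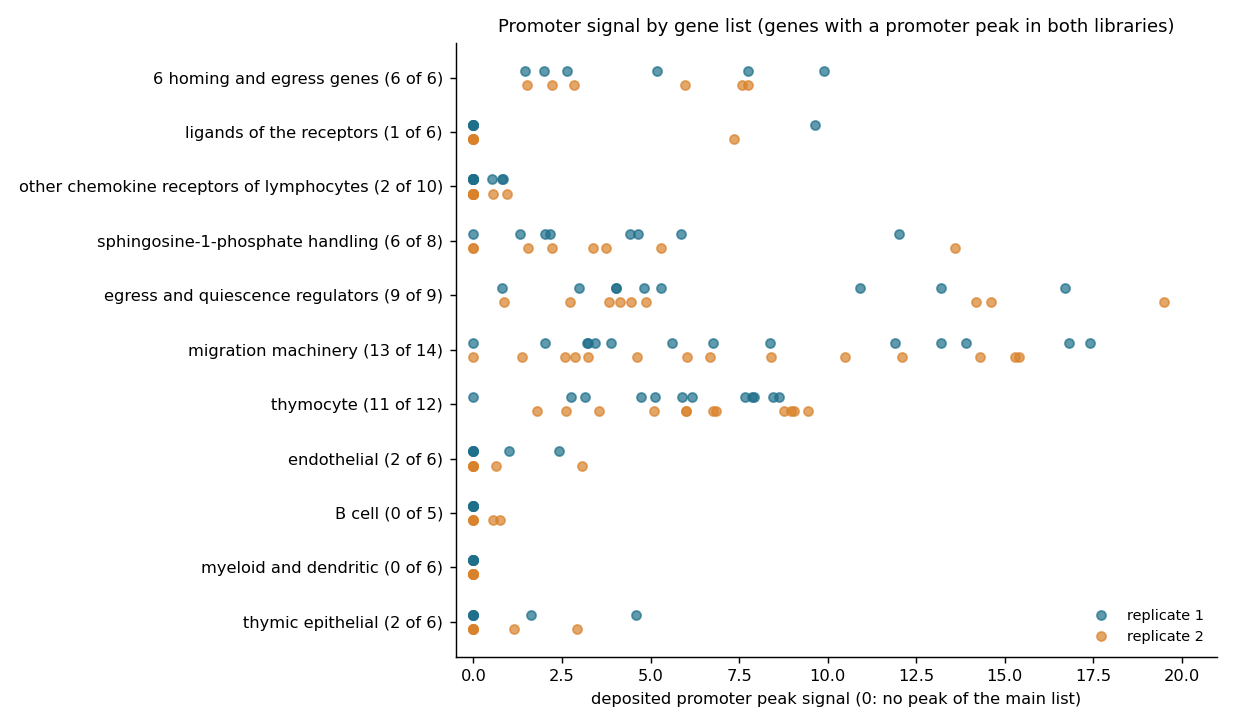
Deposited promoter signal of each gene by list, 1 point per gene and library, with genes that have no main-list promoter peak at 0 and the count of genes open in both libraries beside each list. The 6 homing and egress genes span 1.45 to 9.90, the other chemokine receptors stay below 1, and markers of other cell types are mostly at 0.

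Markers of the tissue and of other cells that use these genes were read in the same way. Of 12 thymocyte markers 11 had a promoter peak in both libraries, with a summed promoter signal of 68.4 in replicate 1 and 74.9 in replicate 2, and Cd4 was in the main list of replicate 2 alone and in the longer list of both. Of 6 endothelial markers, whose cells are known for Klf2 and S1pr1, Pecam1 and Kdr had one in both, the sum was 3.43 in replicate 1 and 3.71 in replicate 2, and Cdh5, Tek, Tie1 and Emcn had none. None of 5 B cell markers had one in the main list of both, with sums of 0 in replicate 1 and 1.30 in replicate 2. In the longer list, 2 of them had one in both. Cd79b had 0.77 in replicate 1 and 1.28 in replicate 2, and Ms4a1 had 0.259 and 0.554 in the same order. None of 6 myeloid and dendritic markers had any in the main list, but Lyz2 was in the longer list of both, with 0.421 in replicate 1 and 0.528 in replicate 2. Of 6 thymic epithelial markers Aire and Epcam had one in both, and the sum was 6.24 in replicate 1 and 4.05 in replicate 2. Foxn1, Psmb11, Krt5 and Krt8 had none in the main list. The part of these cells in the values at the 6 genes was not tested.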

How the data were processed

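DNase-seq of thymus gave 2 libraries of 1 group. Per the file notes, peaks, footprints and false discovery rates were made per library on mm10, without pooling; for the aligner, callers and thresholds, names are not given in the sources used. The peak signal is as the authors deposited it, with its scale unstated. The deposited p-value type column is a false discovery rate (q-value), listed only under 0.05. Footprints were used by position, since their deposited score is 0.01 throughout. The shorter of each library's 2 peak lists is called the main list; 98.7% of its peaks in replicate 1 and 98.6% in replicate 2 touched the longer list.

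Libraries held 50648 main-list peaks (replicate 1) and 49872 (replicate 2), and 223227 and 247677 footprints in the same order; read depths were not used here. Overlap meant 1 bp or more. Overlaps were checked on simulated intervals against bedtools 2.31.1; Python 3.11.15, pandas 2.3.3, numpy 2.4.6 and pysam 0.24.0 were used. Genes came from GENCODE M21 (basic set), mitochondrial genes left out, and sequences from RefSeq's GRCm38 genome. The RefSeq promoter table matched 4 of the 6 genes, with the same sequence.

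The 6 genes, lists and motifs were chosen with earlier results of these data known. All 6 genes are described; of each list the 2 genes with the highest mean promoter signal, up to 2 without a promoter peak, and genes whose start is nearest to a site are named, save some that are not reported here. Alternatives changed the peak list, signal limit, promoter window, span, overlap and joining of peaks, and left out each library.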

Additional observations from a re-analysis of the deposited data

How the results depend on the processing

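Promoter peaks in both libraries were again at 6 genes under the longer list and 500 bp promoter windows. With only peaks at or above each library's median signal the count was 5, and S1pr1 dropped out. The count was also 6 with 2.5 kb windows and without either replicate, but these alternatives could not lower it. The median number of peaks per span, 6.75, lay between 6.5 and 7.0 without 1 replicate and became 3.0 in the gene body alone, where all genes had a median of 1.0. With 10 kb flanks it was 5.5 against 2.0 over all genes. The share of member peaks overlapped in the other library was 82.9% on average over both libraries and lay between 75.8% and 91.0% under the alternatives tried, all within 1 SD. That SD is between 89.7% and 76.1%, which are 35 overlapped peaks out of 39 in replicate 1 and 35 out of 46 in replicate 2. It thus comes from the unequal numbers of peaks, and being within it says little about how steady the share is. The count of 3 genes with a stronger site away from promoters was not planned, and was recomputed under alternatives chosen after seeing the data. It was 3 under the longer list, 10 kb flanks and 500 bp promoter windows, and 2 with 2.5 kb windows. Without either replicate it was 3, where it could not have fallen.

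Among values of single genes, 34 of 35 promoter signals, 40 of 49 peak numbers and 21 of 30 footprint numbers stayed within the spread or within 1.5 times. With 2 libraries, leaving out either always keeps a promoter signal within 1 SD, so those alternatives could not move it. The longer list, and peaks at or above each library's median signal where any were left, returned the same promoter signals. The promoter signal that moved was that of Ccr4, 4.86 with 2.5 kb windows. Cxcr4 had 5.0 peaks instead of 11.5 when gaps up to 500 bp were joined. With footprints of both libraries alone, all 6 footprint numbers moved down by more than 1.5 times. No paired analysis was possible because there is 1 group and no test. With 2 libraries the SD is itself poorly known.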
